A study of Mus musculus with 8 samples.

Results

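The subject is a set of 42 genes of DNA replication and S-phase entry, named by symbol with earlier results of these data known. Of these, 41 are among the 17847 genes in the deposited table, and Fen1, the flap endonuclease, was not analysed here. The RNA came from muscle stem cells, which express Pax7, lie beside muscle fibres and rebuild them after damage. There were 4 wild-type and 4 Cox10-/- libraries from C57Bl/6 mice. In the Cox10-/- group a floxed Cox10 allele was recombined by a Pax7-Cre (ERT2) driver, a Cre that acts in Pax7-expressing cells once tamoxifen is present. Per the protocols, which are identical for all 8 samples, animals received 1 intraperitoneal dose of 200 mg/kg tamoxifen, and the design text places the collection of cells 2 days later. The sort kept CD34+ cells and left out those with CD31, CD45 or Sca1 or stained by DAPI. Cox10 makes haem O, a precursor of the haem A that cytochrome c oxidase needs. Whether the wild-type animals carried the Cre or a floxed allele, the age of the animals, and whether each replicate was a separate animal are not stated in the labels, so p-values measure the spread between these samples, which may be technical.

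Before S phase, the origin recognition complex, Cdc6 and Cdt1 load the hexameric helicase Mcm2-7 onto DNA. Cyclin E and E2F transcription factors drive the step into S phase, when Cdc45, the GINS complex and Mcm10 turn the loaded hexamer into a moving helicase. DNA polymerases alpha, delta and epsilon then copy the strands, with delta and epsilon held by the sliding clamp PCNA. Muscle stem cells in uninjured adult muscle are mostly out of the cell cycle and carry little of this machinery, which they raise when they are activated.

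The values are log2 CPM, log2 read counts scaled to each library's total, as deposited; any CPM of 1 or less stands at 0. Libraries held 1693349 to 4650051 reads in genes. Cox10 stood at 3.98, 3.42, 4.12 and 3.69 log2 CPM in wild-type replicates 1 to 4 and at 3.51, 3.69, 3.49 and 2.05 in Cox10-/- replicates 1 to 4, and its difference of -0.62 ± 0.34 (SE) did not pass the test (limma adjusted p = 0.246). The genotypes overlapped in it. Reads from exons outside the deleted part count towards it, and the labels do not name that part, so the gene's level does not check the genotype labels. Pax7 stood at 8.72, 8.77, 8.45 and 8.52 in wild-type and at 7.52, 7.44, 7.20 and 7.15 in Cox10-/-, lower in every Cox10-/- library (adjusted p = 1.9e-05). In such bulk samples, fewer cells of a type and less RNA per cell cannot be told apart. All 12 listed muscle stem cell markers were detected, with summed CPM of 2754.5 to 3454.2 in wild-type and 1937.3 to 2091.1 in Cox10-/-. Of these markers 7 fell (Pax7, Myf5, Itga7, Cdh15, Calcr, Fgfr4 and Cxcr4), where 8.51% of all genes did. Vcam1, Cd34, Sdc4, Chodl and Spry1 did not pass, with Sdc4 at -0.015 and Spry1 at -0.03. The marker lists were chosen with earlier results of these data known. Of 12 endothelial markers 4 were higher in Cox10-/- (Pecam1, which encodes the sorted-out CD31, and Cdh5, Flt1 and Esam) and none lower, where 7.58% of all genes rose. The 12 summed to 275.9 to 354 CPM in wild-type and 362.6 to 462.9 in Cox10-/-, and none was at 0 in all libraries. When each of the 8 libraries was left out in turn, Pecam1 lost its call 6 times, with an adjusted p as high as 0.0763 when Cox10-/- replicate 3 was missing. Cdh5 lost its call 4 times, with 0.0661 when Cox10-/- replicate 2 was missing, and also when replicates 1 and 2, and 3 and 4, were averaged to 2 means per genotype (0.169). The sums overlapped between genotypes for fibro-adipogenic markers (10 of 10 detected, 3811 to 5045.9 and 3947.9 to 7883.2), mural (8 of 9, 1285.3 to 1498.3 and 1084.3 to 1397.8), Schwann (7 of 7, 220.2 to 482.7 and 261.5 to 509.8), fibre (11 of 11, 415.8 to 957.5 and 370.6 to 747.3) and tendon genes (6 of 6, 1495.7 to 1907.6 and 1468.7 to 2909.8). Of 12 immune markers 4 were in the table (25.6 to 35.2 and 27.7 to 47.4), and Ptprc, which encodes the sorted-out antigen CD45, was not analysed here. Within these lists Pdgfra and Ly6a, a gene of the sorted-out Sca1, rose and Dpt fell among the fibro-adipogenic markers. Myh11 and Pdgfrb rose and Notch3, Cspg4 and Acta2 fell among the mural ones. Notch3 was the highest of the 8 mural markers in wild-type (9.24, 9.38, 9.08 and 9.30 log2 CPM). In Cox10-/- it stood at 7.41, 6.93, 6.81 and 6.33. The overlap of the mural sums therefore does not show that the other mural markers were level. Of the 8, 5 had a log2 fold change above 0 and 3 below. Cdh19 rose among the Schwann markers, Ckm and Tnnt3 rose and Actn3 fell among the fibre genes, and Scx fell among the tendon genes. With 2 means per genotype Fgfr4, Cxcr4, Ly6a, Pdgfra, Dpt, Cspg4, Acta2, Cdh19 and Ckm did not pass. With limma voom, which weights the recovered reads by their precision, Ly6a did not pass (adjusted p = 0.124). Acta2 and Cdh19, whose groups overlapped, each kept the call in 1 of the 8 fits without 1 library (limma adjusted p up to 0.126 and 0.102). Cxcr4 kept its call in 6 of these fits, and Ly6a, Dpt and Cspg4 in 7. The part of other cell types in the results that follow was not tested.

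The replication genes did not move as a block in Cox10-/- cells: 3 of 41 members fell (Mcm2, Tyms and Pola1), 3 rose (Mcm7, Mcm10 and Pole), and 35 did not pass an adjusted p of 0.05 in limma. These 6 are 14.6% of the members, beside 16.1% of the 17801 genes tested across the table; 7.58% of all genes rose and 8.51% fell. The members' share is thus near that of all genes. The median log2 fold change of the 41 members was 0.065 and that of all genes was -0.055; 25 members lay above 0 and 16 below, against 45% above 0 over all genes. Both genotypes were separated without overlap in 6 members, 3 higher in Cox10-/- (Mcm7, Mcm10 and Chaf1b) and 3 lower (Mcm2, Tyms and Pola1), where 21.1% of all genes were separated, 9.3% with Cox10-/- higher and 11.8% with Cox10-/- lower. An unadjusted p below 0.05 was found in 9 of the 41 members. The share of all genes below it was not counted, so this number is not read as an excess.

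**Figure D1:**
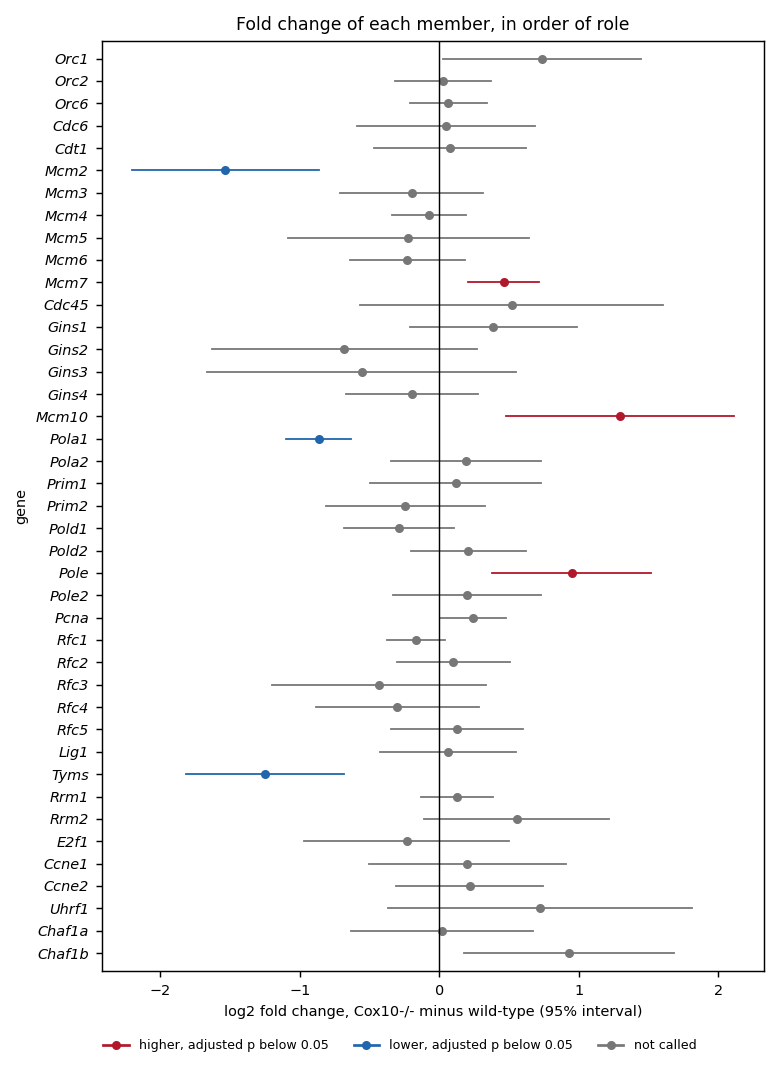
Log2 fold change (Cox10-/- minus wild-type, x axis) of the 41 members in order of role, with the 95% interval of the limma fit (4 libraries per genotype). Mcm2, Pola1 and Tyms lie below 0 and Mcm7, Mcm10 and Pole above 0 with an adjusted p below 0.05; the other 35, in grey, did not pass.

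The largest fall among the members was in the helicase. Mcm2 encodes a subunit of the Mcm2-7 hexamer whose tail also holds histones. It stood at 4.51, 3.94, 5.48 and 5.02 log2 CPM in wild-type replicates 1 to 4 and at 3.65, 3.34, 2.89 and 2.94 in Cox10-/- replicates 1 to 4. Every Cox10-/- library lay below every wild-type library. The log2 fold change was -1.53 ± 0.31 (SE; limma adjusted p = 0.00579), which leaves 34.6% of the wild-type level (95% interval 21.7% to 55.1%). In recovered reads these are 81, 33, 208 and 131 against 54, 44, 23 and 13.

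Mcm7, a subunit of the same hexamer, rose by a small amount. Its values were 5.95, 5.82, 6.32 and 6.01 in wild-type and 6.51, 6.39, 6.45 and 6.60 in Cox10-/-. The groups did not overlap, and the narrowest gap was between wild-type replicate 3 and Cox10-/- replicate 2. The rise was 0.46 ± 0.12 (SE; adjusted p = 0.0195), or 1.38-fold (95% interval 1.15 to 1.65). Without wild-type replicate 1 the adjusted p was 0.0594. Of the 4426 exonic bases of Mcm7 in GENCODE vM21, 12.6% are shared with other genes, among them Ap4m1 and Cops6 on the opposite strand and the microRNA genes Mir25 and Mir93; the labels do not say whether strand was used in counting.

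The other helicase subunits did not pass the test. Mcm4 differed by -0.07 (95% interval -0.34 to 0.19), Mcm3 by -0.20 (-0.71 to 0.32), Mcm6 by -0.23 (-0.64 to 0.18) and Mcm5 by -0.22 (-1.09 to 0.64). At the level of transcripts, Mcm2 was lower in Cox10-/- relative to Mcm7 and to the 6 subunits together. Mcm7 exceeded Mcm2 by 1.44, 1.88, 0.84 and 0.99 log2 units in wild-type replicates 1 to 4 and by 2.86, 3.05, 3.56 and 3.66 in Cox10-/- replicates 1 to 4. Mcm2 made up 6.93% to 11.7% of the summed CPM of the 6 subunits in wild-type and 2.85% to 4.54% in Cox10-/-, while the summed CPM itself lay between 221.4 and 383 in wild-type and between 259.9 and 276.5 in Cox10-/-. This pair was chosen after its values were seen, and its gap restates the 2 calls. The shares are not corrected for transcript length, which is the same in every library.

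**Figure D2:**
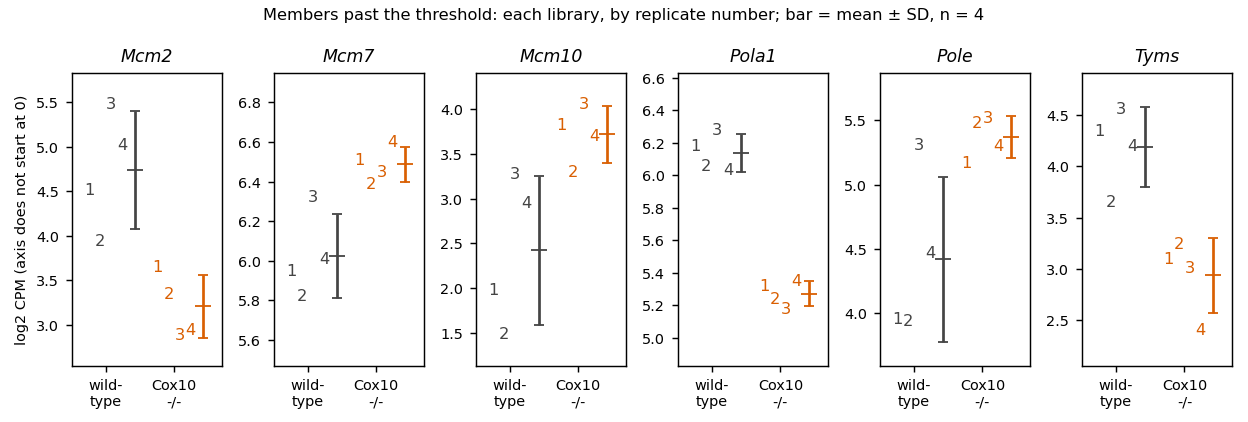
Log2 CPM (y axis, not starting at 0, a scale per gene) of the 6 members past the threshold in each library, drawn as its replicate number, with mean ± SD (n = 4). Mcm2, Pola1 and Tyms are lower in all 4 Cox10-/- libraries; for Pole, wild-type replicate 3 (5.31) lies within the Cox10-/- range.

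Among the polymerase genes, the catalytic subunits of 2 enzymes moved in opposite directions. Pola1, the catalytic subunit of DNA polymerase alpha, which extends the RNA primers that start each new strand, had the smallest p among the members. Its values were 6.18, 6.06, 6.28 and 6.03 in wild-type and 5.32, 5.24, 5.18 and 5.35 in Cox10-/-. The fall was uniform over libraries, at 0.12 (SD) or less within each genotype. The log2 fold change was -0.86 ± 0.11 (SE; adjusted p = 2.5e-04), a level 54.9% of wild-type (95% interval 46.7% to 64.6%). The partners of Pola1 in the primase complex did not pass: Pola2 differed by 0.19 (95% interval -0.34 to 0.73), Prim1 by 0.12 (-0.50 to 0.73) and Prim2 by -0.24 (-0.81 to 0.33).

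Pole, the catalytic subunit of DNA polymerase epsilon, which copies the leading strand, rose. It stood at 3.95, 3.94, 5.31 and 4.47 in wild-type and at 5.17, 5.48, 5.52 and 5.30 in Cox10-/-. Wild-type replicate 3 lay above Cox10-/- replicates 1 and 4, so the groups overlapped. The rise was 0.95 ± 0.26 (SE; adjusted p = 0.0278), or 1.93-fold (95% interval 1.30 to 2.87). The call was lost without wild-type replicate 1 (adjusted p = 0.0851), wild-type replicate 2 (0.0641), Cox10-/- replicate 2 (0.0665) or Cox10-/- replicate 3 (0.0792). Pole2, its second subunit, differed by 0.20 (95% interval -0.33 to 0.73), and the polymerase delta genes Pold1 by -0.29 (-0.68 to 0.11) and Pold2 by 0.21 (-0.20 to 0.62), none past the test.

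Mcm10, which binds the Mcm2-7 helicase as origins fire and brings in polymerase alpha, had the largest rise. Its values were 1.98, 1.48, 3.28 and 2.95 in wild-type and 3.82, 3.30, 4.06 and 3.70 in Cox10-/-. All Cox10-/- libraries were higher, by as little as 0.02 between Cox10-/- replicate 2 and wild-type replicate 3. The log2 fold change was 1.30 ± 0.38 (SE; adjusted p = 0.0347), or 2.46-fold (95% interval 1.39 to 4.33). It rests on few reads, 14, 6, 45 and 31 in wild-type and 61, 43, 52 and 22 in Cox10-/-. The call was lost in 5 of the 8 fits that left out 1 library: wild-type replicate 1 (adjusted p = 0.0986), wild-type replicate 2 (0.064), Cox10-/- replicate 1 (0.0733), Cox10-/- replicate 3 (0.101) and Cox10-/- replicate 4 (0.0598). The other genes of helicase activation did not pass: Cdc45 differed by 0.52 (95% interval -0.57 to 1.61), Gins1 by 0.39 (-0.21 to 0.99), Gins2 by -0.68 (-1.63 to 0.27), Gins3 by -0.55 (-1.66 to 0.55) and Gins4 by -0.20 (-0.67 to 0.28). With limma voom the difference of Cdc45 was 0.11. Gins2 was listed at 0 in Cox10-/- replicate 2, the single value of any member at the floor, so that its difference may be understated; with limma voom, which takes that library as 0 reads, it was -1.92 (adjusted p = 0.162). Of its exonic bases 67.3% are shared with Gse1 on the opposite strand.

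Tyms, thymidylate synthase, which makes the thymidine monophosphate used only for DNA, fell. It stood at 4.34, 3.65, 4.56 and 4.20 in wild-type and at 3.10, 3.24, 3.01 and 2.41 in Cox10-/-. No Cox10-/- library reached the lowest wild-type library, replicate 2. The log2 fold change was -1.25 ± 0.26 (SE; adjusted p = 0.00711), a level 42.1% of wild-type (95% interval 28.4% to 62.4%). Ribonucleotide reductase, which makes the other deoxynucleotides from ribonucleotides, did not pass in either subunit: Rrm1 differed by 0.13 (95% interval -0.13 to 0.39) and Rrm2 by 0.56 (-0.11 to 1.22).

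Promoter sequences are shown for the members past the threshold that matched the RefSeq promoter table (GRCm38.p6; 250 bases before to 50 after the annotated start), because E2F factors bind many replication promoters at the letters TTTCCCGC, TTTCGCGC, TTTGCCGC or TTTGGCGC. These 8-base forms were searched on both strands, overlapping matches included, and are in capitals; a match on the minus strand of the gene shows as the reverse complement. The files' own build is mm9, so all coordinates here belong to the reference only; in GENCODE vM21 (GRCm38) the gene bodies lie with Mcm2 at chr6:88883474-88898780, Mcm7 at chr5:138164583-138172422, Mcm10 at chr2:4989714-5012791, Pola1 at chrX:93304767-93632155, Pole at chr5:110286306-110337474 and Tyms at chr5:30058202-30073617.
Mcm2 (chr6:88898731-88899030, minus strand): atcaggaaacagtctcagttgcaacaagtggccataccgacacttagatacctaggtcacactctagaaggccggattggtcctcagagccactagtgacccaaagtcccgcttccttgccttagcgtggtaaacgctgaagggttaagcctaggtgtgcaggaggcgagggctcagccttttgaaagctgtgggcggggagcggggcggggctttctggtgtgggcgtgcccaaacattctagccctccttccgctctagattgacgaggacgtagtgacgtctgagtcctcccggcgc
Mcm7 (chr5:138171834-138172133, minus strand): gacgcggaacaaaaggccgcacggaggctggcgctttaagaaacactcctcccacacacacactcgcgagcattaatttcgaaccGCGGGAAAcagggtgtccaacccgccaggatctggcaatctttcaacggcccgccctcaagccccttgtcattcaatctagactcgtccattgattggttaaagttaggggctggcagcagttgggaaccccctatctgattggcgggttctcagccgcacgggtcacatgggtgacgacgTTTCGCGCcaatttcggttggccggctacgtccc
Mcm10 (chr2:5012742-5013041, minus strand): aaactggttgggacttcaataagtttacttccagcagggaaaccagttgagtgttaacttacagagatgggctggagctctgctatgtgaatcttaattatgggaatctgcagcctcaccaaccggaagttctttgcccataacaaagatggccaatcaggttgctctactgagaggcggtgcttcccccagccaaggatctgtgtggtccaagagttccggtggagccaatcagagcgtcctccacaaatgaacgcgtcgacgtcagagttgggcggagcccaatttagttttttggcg
Pola1 (chrX:93632106-93632405, minus strand): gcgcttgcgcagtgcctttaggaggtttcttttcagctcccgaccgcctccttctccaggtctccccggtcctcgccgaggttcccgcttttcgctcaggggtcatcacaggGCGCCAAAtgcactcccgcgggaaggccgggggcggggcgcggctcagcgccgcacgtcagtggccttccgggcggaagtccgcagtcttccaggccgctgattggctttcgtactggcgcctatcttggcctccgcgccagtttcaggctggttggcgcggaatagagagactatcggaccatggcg
Tyms (chr5:30073576-30073875, minus strand): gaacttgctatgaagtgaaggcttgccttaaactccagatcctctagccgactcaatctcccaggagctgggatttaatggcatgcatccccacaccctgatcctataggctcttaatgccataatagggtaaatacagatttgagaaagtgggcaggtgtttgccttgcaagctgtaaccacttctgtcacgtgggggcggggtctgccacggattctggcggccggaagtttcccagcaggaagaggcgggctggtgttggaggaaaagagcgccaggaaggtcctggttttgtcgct
The Mcm7 window holds a match 165 bases before the start and a second that begins at base 17 of the transcript, and a further Mcm7 window at a second annotated start holds none. The Pola1 window holds 1 match, beginning 138 bases before the start. The windows of Mcm2, Mcm10 and Tyms hold none of the searched forms, which says only that these letters are not in these windows. Of the 34 members with a window, 14 (41.2%) held a match, against 2.6% of 27025 genes and 2.26% of 32851 windows of that length in the table. Matches were present in 2 of the 5 members past the threshold, 1 that rose and 1 that fell, and in 12 of the 29 others, Fen1 included. Mcm6 held the most, 3, and did not pass.

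Of the licensing genes, which load the helicase, none of 5 passed. The smallest p was that of Orc1, the origin recognition subunit whose level follows the cell cycle. It stood at 1.63, 1.48, 2.48 and 1.90 in wild-type and at 2.59, 2.74, 3.06 and 2.05 in Cox10-/-. The groups overlapped, at 0.74 ± 0.33 (SE; adjusted p = 0.145). The differences of Orc2 (0.03, 95% interval -0.32 to 0.37), Orc6 (0.06, -0.21 to 0.34), Cdc6 (0.05, -0.59 to 0.69) and the loading factor Cdt1 (0.08, -0.47 to 0.62) were all within 0.1 of 0.

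The sliding clamp and its loader had no call among 6 genes. Pcna, the clamp, stood at 5.84, 5.74, 5.90 and 5.62 in wild-type and at 6.06, 6.14, 6.01 and 5.87 in Cox10-/-. Cox10-/- replicate 4 lay below the highest wild-type library, and the difference was 0.24 ± 0.11 (SE; adjusted p = 0.149). The pseudogenes Pcna-ps1 and Pcna-ps2 resemble Pcna and may share reads with it, and Tyms has a pseudogene Tyms-ps as well. The loader subunits Rfc1 to Rfc5 ranged from -0.43 for Rfc3 (95% interval -1.20 to 0.34) to 0.13 for Rfc5 (-0.34 to 0.60). Rfc1 was the most even of them, at -0.16 (-0.37 to 0.04). Lig1, the ligase that joins the pieces of the lagging strand, stood at 4.89, 4.54, 5.58 and 5.21 in wild-type and at 5.41, 4.72, 5.37 and 4.97 in Cox10-/-. The ranges covered each other, with a difference of 0.06 (95% interval -0.43 to 0.55), whose sign turned with several settings.

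The G1/S drivers among the members had no call. Ccne2, an E cyclin that activates Cdk2, stood at 3.03, 3.36, 3.03 and 3.24 in wild-type and at 2.89, 3.74, 3.57 and 3.33 in Cox10-/-. The groups overlapped, with a difference of 0.22 (95% interval -0.31 to 0.75). Ccne1 differed by 0.20 (-0.50 to 0.91), and E2f1, an activating E2F, by -0.23 (-0.97 to 0.50).

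None of the 3 genes that copy chromatin with the DNA passed. Chaf1b, a subunit of the histone chaperone CAF-1, had the smallest adjusted p of the members without a call. It stood at 1.76, 1.22, 2.54 and 2.24 in wild-type and at 2.65, 2.78, 3.49 and 2.56 in Cox10-/-. The groups did not overlap, though by 0.02 at the nearest, and the difference was 0.93 ± 0.35 (SE; adjusted p = 0.0877). Its partner Chaf1a differed by 0.02 (95% interval -0.63 to 0.67), and 52.5% of the exonic bases of Chaf1a are shared with Ubxn6 on the opposite strand. Uhrf1, which brings the maintenance DNA methyltransferase to new DNA, varied the most within wild-type: 2.93, 2.90, 5.38 and 4.43, against 4.55, 3.76, 5.14 and 5.07 in Cox10-/-. Its difference was 0.72 (95% interval -0.37 to 1.81), and 0.45 with limma voom. Over the 35 members without a call, the 95% interval lay within a log2 change of 1 in either direction for 26, reached 1 or more for 5 and reached -1 or less for 4.

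**Figure D3:**
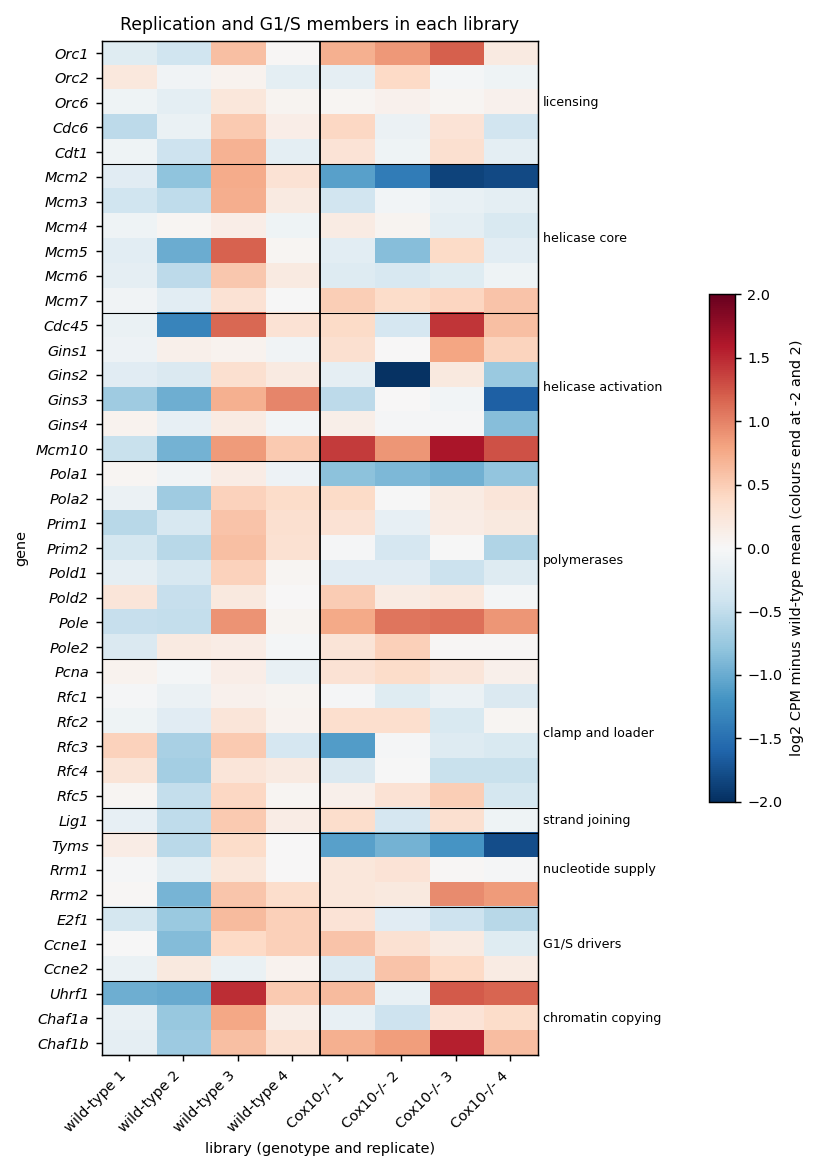
Log2 CPM of each of the 41 members (rows, by role) in each library (columns) after subtracting the gene's wild-type mean. Wild-type replicate 3 is the reddest of the wild-type columns, being the highest of them in 33 members, and replicate 2 the bluest, being the lowest in 32.

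The members shared a pattern among the wild-type libraries. Wild-type replicate 3 was the highest of the 4 in 33 of 41 members and replicate 2 the lowest in 32, against 29.8% and 45.5% of all genes. Replicates 3 and 4 together lay above replicates 1 and 2 in 37 of 41 members, by a median of 0.51 log2 units, against 60.5% of all genes and a median of 0.10. In Cox10-/- the same contrast was above 0 in 18 of 41, against 35.8% of all genes, with medians of -0.03 and -0.12. The wild-type pattern was not particular to the members. In the mitotic genes compared further below, replicates 3 and 4 lay above 1 and 2 in 30 of 30 in wild-type (median 0.77). In Cox10-/- they did so in 29 of 30 mitotic genes (median 0.925). The spread within wild-type exceeded that within Cox10-/- in 33 members, with median SDs of 0.44 and 0.32; over all genes it did so in 48.7%, with 0.27 and 0.28. Wild-type replicate 3 was also the deepest library, with 4650051 reads, and replicate 2 the shallowest of its genotype, with 2148645; the part of depth was not tested.

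The comparison of genotypes gave different values in replicates 1 and 2 and in replicates 3 and 4. This division was taken from earlier results on these data, and the labels do not say what such replicates share. Between replicates 1 and 2, 35 of 41 members were higher in Cox10-/-, with a median difference of 0.34 (0.05 over all genes). Between replicates 3 and 4, 29 of 41 were lower, with a median of -0.23 (-0.15 over all genes). A total of 23 members were higher in replicates 1 and 2 and lower in 3 and 4, 12 were higher in both, 6 were lower in both, and none showed the reverse. The shares of these patterns over all genes were not counted. The change between the pairs of replicates follows from the contrasts within each genotype above and is not a separate result. E2f1 differed by 0.57 in replicates 1 and 2 and by -1.03 in 3 and 4, Ccne1 by 0.88 and -0.47, and Gins3 by 0.58 and -1.69. Each of the 6 called members kept its sign: -0.73 and -2.33 for Mcm2, -0.84 and -0.89 for Pola1, -0.82 and -1.67 for Tyms, 0.56 and 0.36 for Mcm7, 1.83 and 0.77 for Mcm10, and 1.38 and 0.52 for Pole. The calls were made on these same libraries, so the kept signs are no separate support for them. With replicates 1 and 2, and 3 and 4, averaged to 2 values per genotype, Pola1 (adjusted p = 0.0188) and Mcm2 (0.0376) kept their calls, and Tyms (0.0587), Pole (0.0915), Mcm10 (0.139) and Mcm7 (0.167) did not. The difference between these pairs of replicates was not tested.

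**Figure D4:**
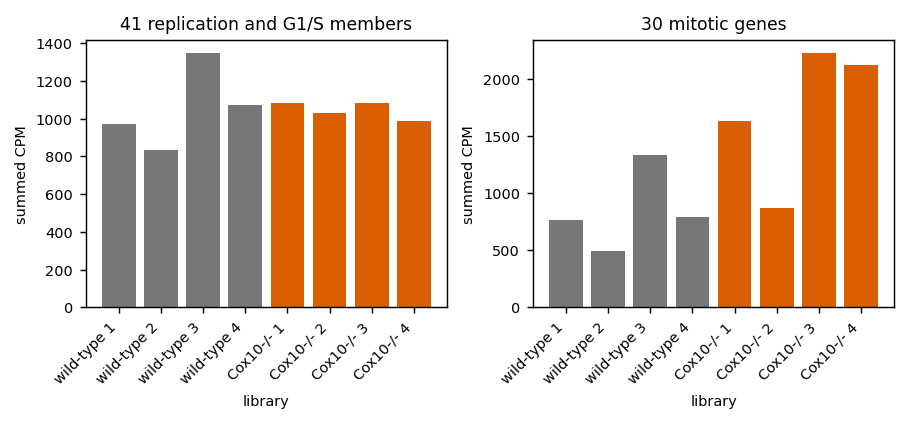
Summed CPM (y axis, from 0) of the 41 members (left) and of 30 mitotic genes (right) in each library, wild-type in grey and Cox10-/- in orange. The members reach 835.9 to 1347.8 in wild-type and 985.4 to 1085.1 in Cox10-/-; the mitotic genes reach 497.3 to 1334.1 and 875.3 to 2228.5.

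Mitotic genes serve cell division once the DNA has been copied, and are given here for comparison. The members summed to 969.8, 835.9, 1347.8 and 1072.7 CPM in wild-type replicates 1 to 4, and to 1081.7, 1027.4, 1085.1 and 985.4 in Cox10-/-. The mitotic genes summed to 764.8, 497.3, 1334.1 and 794.9 CPM in wild-type and to 1630.3, 875.3, 2228.5 and 2127.2 in Cox10-/-. Within wild-type both sums ran in the same order of libraries, and within Cox10-/- they did not. All 30 mitotic genes lay above 0, with a median of 1.06. Of these genes 13 rose (43.3%, beside 7.58% of all genes) and none fell. This list too was chosen with earlier results of these data known. Of the 30 mitotic genes 1 had groups that did not overlap, where 9.3% of all genes were separated with Cox10-/- higher. This was Ckap2, which binds the spindle, with a rise of 1.09 ± 0.22 (SE, limma adjusted p = 0.00555). Of the 13 calls only that of Ckap2 held in all 8 fits without 1 library, and the others were lost in 3 to 6. With limma voom on the recovered reads 3 of the 13 kept their calls (Ckap2, Cdc20 and Nusap1), and with 2 means per genotype 3 did (Ckap2, Cdc20 and Cenpe). The next smallest p-values were those of Nusap1, which bundles spindle microtubules (1.18 ± 0.31, adjusted p = 0.0222), Cdc20, an activator of the anaphase-promoting complex (1.20 ± 0.33, 0.0268), and Anln, which builds the cleavage furrow (0.97, 0.0271). Nusap1 lost its call in 3 of the 8 fits (up to 0.0747, without Cox10-/- replicate 3), Cdc20 in 5 and Anln in 6. The median mitotic difference was 1.01 between replicates 1 and 2 and 1.17 between replicates 3 and 4. Whether the members and the mitotic genes differ in their response was not tested.

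Compared per length, as log2 CPM per kilobase of merged exon, Pcna was the highest member in wild-type at 4.51 ± 0.12 (SD, n = 4), followed by Mcm4 at 4.41 ± 0.11, which is within their spread. Rfc1 (4.06 ± 0.09) and Gins4 (4.06 ± 0.14) came next and did not differ beyond it either. Mcm10 was the lowest at -0.52 ± 0.84, below Chaf1b at -0.29 ± 0.58, again within the spread. Among the hexamer subunits the order in wild-type was Mcm4, Mcm7 (3.88 ± 0.21), Mcm6 (3.60 ± 0.46), Mcm3 (3.20 ± 0.57), Mcm5 (1.98 ± 0.90) and Mcm2 (1.94 ± 0.66). Mcm7 and Mcm3 both lay within the spread of Mcm6, and Mcm5 and Mcm2 were within their spread. In Cox10-/- cells Mcm7 (4.34 ± 0.09) was level with Mcm4 (4.33 ± 0.22), and Mcm2 stood at 0.41 ± 0.36. Exon lengths come from GENCODE vM21 and not from the authors' annotation. They merge the exons of all annotated transcripts of a gene, 6956 bases for Mcm2 and 3993 for Mcm5. Such a length can exceed that of 1 mRNA, unevenly between genes, so these levels and their order are approximate.

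Of a list of 75 other genes of the pathway, 74 were in the table. They had 6 rises and 12 falls (24.3%, beside 16.1% of all genes), with a median of -0.07. The list was chosen with earlier results of these data known, so that share is not read as an excess. With 2 means per genotype 6 of these 18 calls held, those of Ccnd1, Cdkn1a, Rbl2, E2f7, Samhd1 and Cdca7l. None of 12 licensing and origin-firing genes passed, among them Dbf4 and Cdc7, the kinase that triggers origins. Of 21 fork and polymerase genes 1 rose and 3 fell. Rpa2, a subunit of the protein that coats single-stranded DNA, rose by 0.69 ± 0.19 (SE; adjusted p = 0.0311). Pole4, a small subunit of polymerase epsilon, fell by 0.71 ± 0.21 (0.0336), Tipin, which steadies stalled forks, by 0.57 ± 0.18 (0.0445), and Chtf8, part of a second clamp loader, by 0.53 ± 0.13 (0.0138). These calls depended on single libraries. Leaving out Cox10-/- replicate 3 raised the adjusted p to 0.0929 for Pole4, 0.102 for Rpa2 and 0.0507 for Chtf8, and leaving out wild-type replicate 4 raised that of Tipin to 0.119. Over the 8 such fits Pole4, Tipin, Rpa2 and Chtf8 lost the call 6, 6, 5 and 1 times.

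Nucleotide supply outside the members held 1 rise and 1 fall among 8 genes. Samhd1, which breaks down deoxynucleotide triphosphates, stood at 5.86, 5.79, 6.12 and 5.93 in wild-type and at 6.85, 6.88, 6.89 and 6.89 in Cox10-/-. The Cox10-/- libraries were nearly equal and all higher, with a rise of 0.95 ± 0.10 (SE; adjusted p = 6.4e-05). Dtymk, the kinase that acts on the product of Tyms, fell by 0.67 ± 0.18 (adjusted p = 0.024), a call lost in 3 of the 8 fits (up to 0.0763, without Cox10-/- replicate 3). Of 9 genes of chromatin copying and histone supply, 1 fell: Cdca7l, at 3.38, 2.70, 3.69 and 3.20 in wild-type and at 1.06, 0.20, 1.17 and 0 in Cox10-/-. Its fall of 2.64 ± 0.36 (adjusted p = 4.9e-04) is understated, since Cox10-/- replicate 4 is at the floor.

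The other cyclin, CDK, Rb and E2F genes govern the G1 phase. Of these 24 genes 4 rose and 7 fell, 45.8% beside 16.1% of all genes. This list was chosen with earlier results of these data known, so its share is not read as an excess. Ccnd1, cyclin D1, which carries growth signals to the Rb proteins, stood at 6.65, 6.20, 6.82 and 6.67 in wild-type and at 4.88, 4.93, 4.89 and 4.56 in Cox10-/-. It was lower in every Cox10-/- library, at 29.3% of wild-type (log2 fold change -1.77 ± 0.15, SE; adjusted p = 1.7e-05). Its kinases fell too, Cdk6 by 0.69 ± 0.16 (adjusted p = 0.013) and Cdk4 by 0.53 ± 0.11 (0.00673), as did Ccnd2 by 0.43 ± 0.13 (0.0422). Skp2, the ubiquitin ligase subunit that clears the inhibitor p27, fell by 1.02 ± 0.24 (0.0126).

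The inhibitor Cdkn1a, p21, stood at 6.68, 6.58, 6.37 and 6.33 in wild-type and at 7.13, 7.27, 7.21 and 7.24 in Cox10-/-. It was higher in every Cox10-/- library, by 0.72 ± 0.10 (SE; adjusted p = 5.2e-04). Rbl2, the Rb relative p130 that represses E2F targets in resting cells, rose by 0.88 ± 0.12 (3.8e-04). E2f7, a repressor of the E2F family, rose by 1.18 ± 0.20 (0.00235), and Tfdp2, a DNA-binding partner of E2F, by 0.53 ± 0.14 (0.0212). The repressive E2f6 fell by 0.79 ± 0.18 (0.0118) and E2f4 by 0.48 ± 0.14 (0.0345). In the 8 fits without 1 library, Ccnd1, Cdk4, Cdk6, Skp2, Cdkn1a, Rbl2, E2f7 and E2f6 kept their calls throughout. E2f4, Ccnd2 and Tfdp2 lost theirs in 6, 5 and 3 of them. Their adjusted p reached 0.0936, 0.107 and 0.0672, without wild-type replicates 3, 4 and 1. With 2 means per genotype Cdk4, Cdk6, Skp2, E2f6, E2f4, Ccnd2 and Tfdp2 did not pass.

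**Figure D5:**
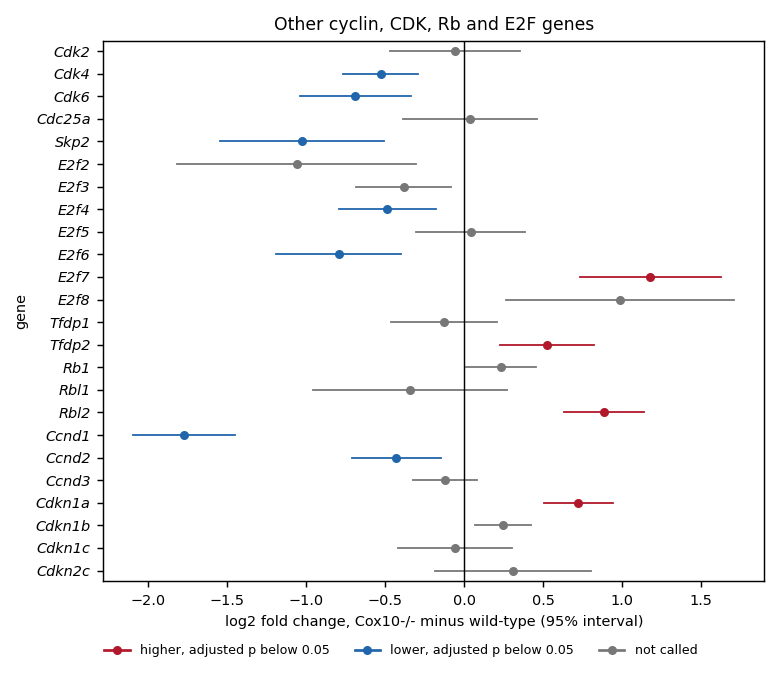
Log2 fold change (Cox10-/- minus wild-type, x axis) with the 95% interval of the limma fit for the 24 other cyclin, CDK, Rb and E2F genes, 4 libraries per genotype. Ccnd1 lies farthest below 0 (-1.77) and E2f7 farthest above (1.18); 11 of 24 passed.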

How the data were processed

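Per the labels' protocols, a SMARTer stranded kit for very small inputs turned total RNA into the 8 libraries. Tools named in the submitters' processing notes are featureCounts, HISAT2, DESeq2 and Trim Galore, with the build mm9; their versions, the use of strand and the handling of multiply mapped reads are not stated there. The authors deposited log2 CPM per gene, rounded, with every CPM of 1 or less at 0; a column of their means over all samples was not used. Their values cover 17847 named genes, and 1054 rows without a gene were left out.

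Low values of each library were whole multiples of 1 read (100% within 0.1 of a whole number, up to 20 reads), which gave the reads in genes. Genes above 0 in at least 4 libraries (17801) were fitted by limma 3.58.1 (R 4.3.3) with genotype alone, a trended variance prior, no added pseudocount and Benjamini-Hochberg adjustment over all of them at 0.05. The limma functions were tested on simulated data. Log2 fold changes are Cox10-/- minus wild-type, ± SE of the fit; ± SD is over 4 libraries. Members and lists were chosen with earlier results of these data known. Values in every sample are given for members past the threshold and for the smallest p of each role; Uhrf1, Samhd1, Ccnd1, Cdkn1a, Cdca7l and the pairs compared were picked for this after their values were seen. Other settings comprised filters, log2(CPM + 1), median centring, limma voom on recovered reads, no trend, library weights, a replicate block, a term or means for replicates 1 and 2 against 3 and 4, and omitted libraries.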

Additional observations from a re-analysis of the deposited data

Results flagged for a closer look

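Within a genotype, 3 of 82 groups of 4 values (41 members in 2 genotypes) held a value far from the other 3 by Dixon's ratio at the 95% level, and chance flags about 1 group in 20. Gins4 stood at 3.63 in Cox10-/- replicate 4, the shallowest library, where the others lay between 4.46 and 4.61. Pold1 stood at 4.29 in Cox10-/- replicate 3, where the others lay between 4.45 and 4.48. Rfc4 stood at 2.60 in wild-type replicate 2, where the others lay between 3.45 and 3.53. None of these genes passed the test between genotypes.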

How the results depend on the processing

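Over all genes 2863 passed, against 858 with 2 means per genotype and 1840 to 2907 without 1 library (1840 without Cox10-/- replicate 3, and 1902 without wild-type replicate 1). Rises made up 47.1% of the calls as deposited and 58.4% after median centring. Of the members 6 passed, against 3 with no trend in the variance prior, 3 without the 2 shallowest libraries, 2 with means, and 3 to 6 without 1 library (3 without wild-type replicate 1). Mcm2 and Pola1 kept their calls in all 19 other settings and Tyms in all but that of 2 means per genotype. Mcm7, Mcm10 and Pole lost theirs in 4, 9 and 8 settings, always with the same sign. Chaf1b passed after median centring (adjusted p = 0.0383) and when replicates 1 and 2 were set against 3 and 4 by a term (0.0494). The difference of Lig1, 0.06 as reported, turned to -0.0013 with limma voom, -0.11 with library weights, -0.06 without the 2 shallowest libraries, and ranged from -0.11 without wild-type replicate 2 to 0.24 without wild-type replicate 3 (-0.035 and -0.022 without Cox10-/- replicates 1 and 3). With the replicate number as a block (replicate block), 3201 genes and the same 6 members passed; same-numbered libraries of the genotypes correlated by 0.045 to 0.14 in their deviations, so the numbers were not taken to pair samples, and 2 of 4 wild-type libraries correlated best with their own number. Depth limits the low members: Mcm10 rests on 6 to 61 reads per library.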
